A study of Mus musculus with 12 samples.

Results

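Starved-only USF2 regions are stretches of the mouse genome where a USF2 peak was listed in both libraries from glucose-starved cells and in neither library from normally cultured cells. They were chosen by these calls. Overlapping peaks of the 4 USF2 lists (1 bp or more) were merged, and 275 of 3804 merged regions, or 7.23%, met the rule. All 4 libraries came from wild-type mouse embryonic fibroblasts (MEFs), connective tissue cells grown from embryos, precipitated with a USF2 antibody. They comprised 2 libraries under normal culture (normal 1 and normal 2) and 2 under glucose starvation (starved 1 and starved 2). The labels give no starvation time and do not say whether the 2 libraries of a condition were separate cultures, so differences between them may be technical only. The lists held 1645 and 2124 peaks for normal culture and 825 and 1178 for starvation on the assembled chromosomes. Peak lists hold no expression values, so the cell type could not be checked against markers. Coordinates are those of GRCm38.

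USF2 is a basic helix-loop-helix leucine zipper transcription factor that binds DNA as a dimer, with itself or with its relative USF1. Its preferred site is the E-box CACGTG, a palindrome that also serves MYC, MAX, TFEB, TFE3 and the circadian factor CLOCK. USF proteins commonly bind close to gene starts, and their known targets include genes of glucose and lipid metabolism and of the lysosome.

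The sequences below are shown because they carry the motif under the strongest starved-only summits. They come from RefSeq promoter windows of GRCm38.p6, which run from 250 bases before to 50 bases after an annotated gene start, and are cut here at no more than 30 bases past that start. Each is written 5′ to 3′ on the strand of its gene, with every CACGTG in capitals. The first 3 give the window from its first base, and the other 7 give the bases around the E-box nearest the summit.
Retreg2, chr1:75142536-75142815, plus strand: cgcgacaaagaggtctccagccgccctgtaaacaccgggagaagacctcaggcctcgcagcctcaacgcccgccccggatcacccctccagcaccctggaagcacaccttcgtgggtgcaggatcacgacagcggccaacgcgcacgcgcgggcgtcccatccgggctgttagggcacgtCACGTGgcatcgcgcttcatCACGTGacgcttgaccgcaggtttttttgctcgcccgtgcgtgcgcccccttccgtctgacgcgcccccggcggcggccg
Cbx6, chr15:79834304-79834583, minus strand: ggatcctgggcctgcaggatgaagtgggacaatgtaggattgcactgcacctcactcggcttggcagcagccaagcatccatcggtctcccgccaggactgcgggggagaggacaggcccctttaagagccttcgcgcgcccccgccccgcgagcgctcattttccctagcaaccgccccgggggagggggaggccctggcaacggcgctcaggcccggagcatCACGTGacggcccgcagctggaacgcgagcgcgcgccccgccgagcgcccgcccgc
Mapre1, chr2:153741037-153741316, plus strand: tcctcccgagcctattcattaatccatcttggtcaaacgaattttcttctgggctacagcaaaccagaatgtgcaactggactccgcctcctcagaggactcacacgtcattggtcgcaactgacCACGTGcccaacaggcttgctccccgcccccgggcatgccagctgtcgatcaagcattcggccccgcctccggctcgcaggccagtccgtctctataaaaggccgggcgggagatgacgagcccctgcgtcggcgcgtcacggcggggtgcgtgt
Rbm15b, chr9:106887197-106887256, minus strand: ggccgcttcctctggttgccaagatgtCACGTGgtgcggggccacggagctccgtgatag
Napa, chr7:16098417-16098476, plus strand: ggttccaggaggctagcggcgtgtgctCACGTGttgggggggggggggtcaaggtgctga
Slc16a1, chr3:104638437-104638496, plus strand: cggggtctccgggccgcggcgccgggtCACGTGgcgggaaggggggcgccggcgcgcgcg
Armc9, chr1:86154729-86154788, plus strand: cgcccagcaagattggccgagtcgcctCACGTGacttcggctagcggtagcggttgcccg
Tmc6, chr11:117780663-117780698, minus strand: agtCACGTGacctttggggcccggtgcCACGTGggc
Lats2, chr14:57746101-57746160, minus strand: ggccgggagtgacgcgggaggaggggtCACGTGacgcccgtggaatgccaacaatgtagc
Dip2b, chr15:100038621-100038680, plus strand: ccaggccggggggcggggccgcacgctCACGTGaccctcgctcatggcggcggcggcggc

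The E-boxes of these promoters lay within 100 bp of the peak summits, the points of highest read pileup, in each starved list. Of a region's 2 peaks, the one with the better q-value gives the region's summit, and distances are those of the E-box nearest to it, measured from the summit of each list. At Retreg2, a member of the family of receptors that send endoplasmic reticulum to autophagy, the nearer of 2 E-boxes had its centre 5.5 bp from the starved 1 summit, which is the region's, and 0.5 bp from the starved 2 summit. At Cbx6, which encodes a chromobox subunit of Polycomb complexes, the distance was 47.5 bp in starved 1 and 3.5 bp in starved 2. It was 28.5 and 7.5 bp at Mapre1, which encodes the microtubule plus-end protein EB1. Napa, the gene of the SNARE-disassembling adaptor alpha-SNAP, had 3 E-boxes in its window, the nearest 16.5 and 14.5 bp away. The widest distances among the 10 promoters were 92.5 bp at Slc16a1 and 66.5 bp at Tmc6, both in starved 1, and 67.5 bp at Lats2 in starved 2. In the other list the same promoters had 35.5, 24.5 and 46.5 bp.

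Chromosome 18, with 8 of the starved-only regions, had no promoter windows in the sources used. Across all starved-only regions, 71 had a summit inside a promoter window of a protein-coding gene. These windows belonged to 76 genes, and 65 of the 76, or 85.5% (95% exact binomial interval 75.6 to 92.5), held CACGTG. Among all 17492 protein-coding genes with such a window, 8.91% held it. The share was 11.6% among the 3984 genes with windows at least as rich in G and C as the median starved-only window (66.3%). Those windows had a median GC content of 71.0% and are not matched to the starved-only ones. The part of GC content in the E-box share was not tested. Genes under normal-only regions, which were listed in both normal libraries and in neither starved library, held the E-box in 43 of 112 cases, or 38.4% (29.4 to 48.1). The odds ratio of starved-only to normal-only genes was 9.36 (95% interval 4.31 to 21.9, two-sided Fisher's exact test, Benjamini-Hochberg adjusted p = 9.94e-11 over 4 comparisons). Genes under regions of all 4 lists held it in 144 of 158 cases, or 91.1% (85.6 to 95.1). The difference from those genes did not pass (odds ratio 0.576, interval 0.229 to 1.48, Fisher's exact test, adjusted p = 0.258), and the interval is wide enough to leave a several-fold lower odds possible. With every list reduced to its 825 best peaks, that difference passed (82.1% against 92.9%, Fisher's exact test, adjusted p = 0.0216). The cut also removed weak normal peaks, so regions outside the rule could enter, and 84 starved-only genes were counted instead of 76. The tests count genes in these region sets and do not measure variation between cultures.

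**Figure D1:**
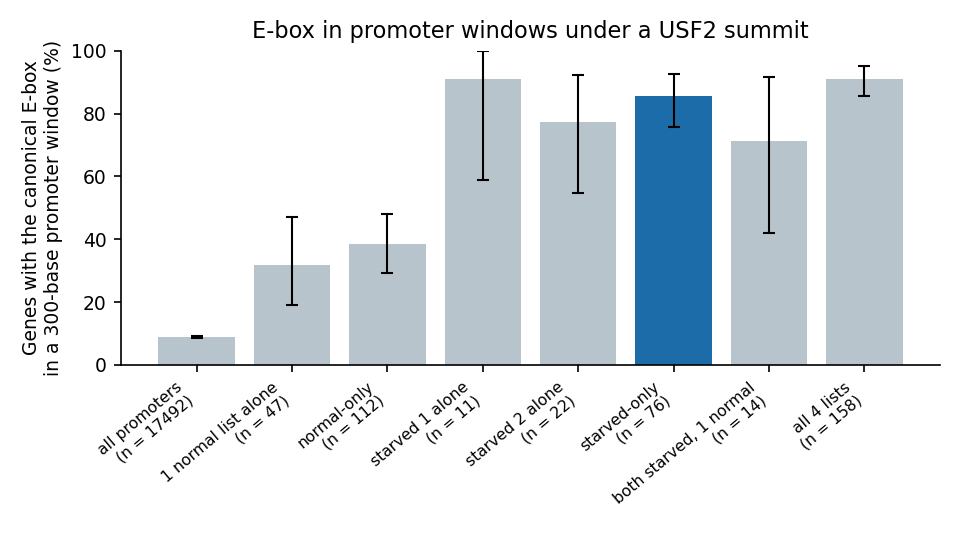
Share of protein-coding genes whose promoter window holds CACGTG (vertical axis, percent), for all promoters and for genes with a USF2 summit in the window, by the lists that called the region. Bars are shares, error bars are 95% exact binomial intervals, and n counts genes; the starved-only bar (blue) stands at 85.5%, against 38.4% for normal-only regions and 91.1% for regions of all 4 lists.

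Regions called in a single list gave these shares. Genes under regions of starved 1 alone held the E-box in 10 of 11 cases and those of starved 2 alone in 17 of 22, or 77.3%. For regions of 1 normal list alone the count was 15 of 47, or 31.9%. Regions of both starved lists and 1 normal list, which just miss the rule, had it for 10 of 14 genes, or 71.4% (interval 41.9 to 91.6). The starved lists were the shorter ones, and the lists also differed in their narrowest peak, 306 bp in both starved lists and 152 bp in both normal lists. The part of list length and peak width in these shares was not tested beyond the alternatives given here.

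Within the 60 starved-only regions that had an E-box in a window, the motif was placed near the summit. The nearest E-box centre was 26.5 bp from the region's summit at the median (range 1.5 to 87.5). Measured from each library's own summit, the medians were 26.5 bp in starved 1 and 29.5 bp in starved 2. In 49 of the 60 regions (81.7%) the E-box lay within 50 bp of the summit, a stretch that covers 31.9% of a window on average. In 27 (45.0%) it lay within 25 bp, a stretch that covers 16.5%. Where a region had more than 1 E-box the nearest was taken, which favours short distances, and the covered shares make no allowance for this. The E-box began upstream of the start in 55 of 60 regions, and the median position over the 60 was -57.5 bases. The windows hold 250 bases before the start and 50 from it on, so most positions searched were upstream. A preference for the upstream side was not tested. One E-box was present in 49 regions, 2 in 8 regions and 3 or more in 3 regions, among them Napa, Rragb and Ciart.

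**Figure D2:**
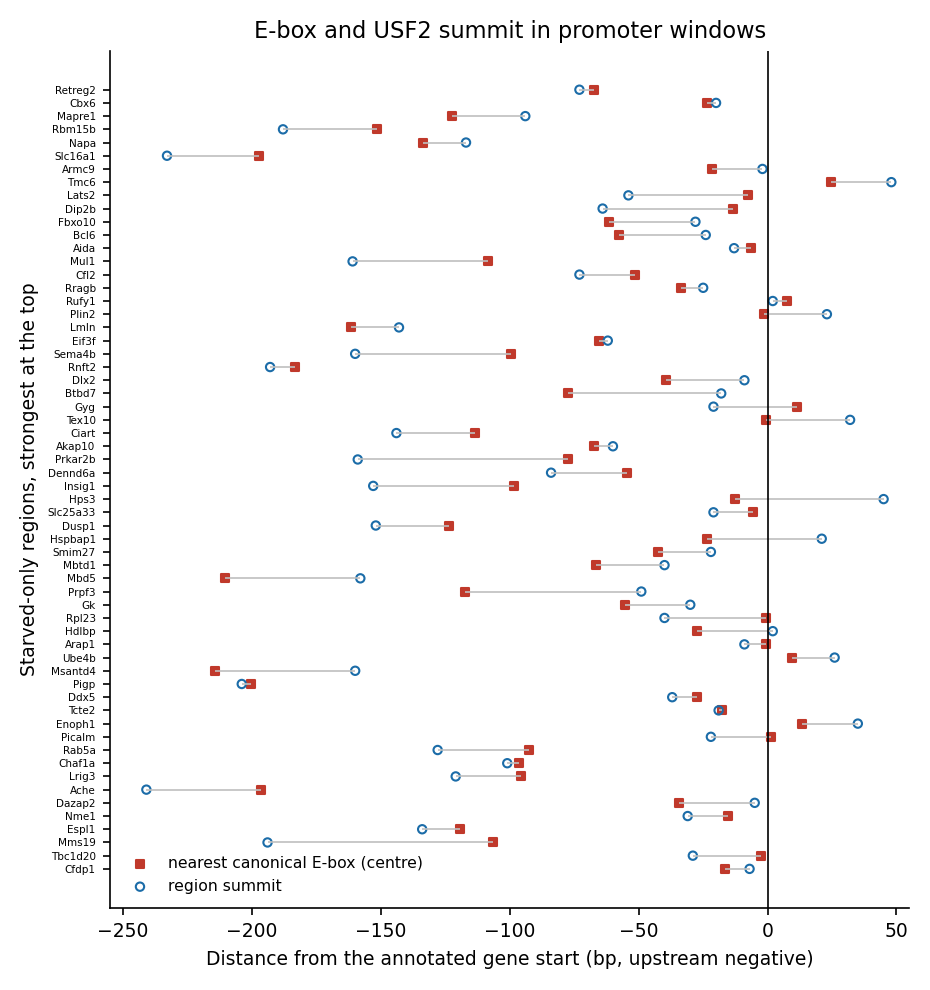
Position of the nearest E-box centre (red squares) and of the region summit (blue circles) relative to the annotated gene start (horizontal axis, bp, upstream negative) in the 60 starved-only regions with an E-box in a promoter window, ordered by fold enrichment with the strongest at the top. Grey lines join the pair of points of a region, and no line is longer than 87.5 bp.

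The bases beside the E-box also set these promoters beside those of other classes. USF proteins favour the longer palindrome TCACGTGA, that is, a T on the outer 5′ side of the E-box on each strand. Of 75 distinct E-boxes in starved-only windows, 22 (29.3%) had this T on both sides, 46 (61.3%) on 1 side and 7 (9.33%) on neither. Of 1685 E-boxes in all promoter windows, 14.5% had it on both sides, 41.1% on 1 side and 44.3% on neither. Regions of all 4 lists had it on both sides in 80 of 209 E-boxes (38.3%), and normal-only regions in 10 of 43 (23.3%). Among the E-boxes nearest a summit, those printed for Cbx6, Armc9, Lats2 and Dip2b are of the full form, and those of Mapre1 and Tmc6 have the T on neither side. These shares are descriptions, and no difference between them was tested.

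In all, 15 motifs were searched on both strands, and matches to 1 may overlap matches to another. The extended E-box TCACGTGA, which contains CACGTG, was found for 28.9% of the 76 genes against 1.41% of all genes with a window. The GC box GGGCGG, the site of Sp-family factors, was found for 63 of the 76 genes (82.9%), against 49.2%. The cyclic AMP response half-site TGACGT was found for 19 of the 76 genes against 9.60%, the ETS core CCGGAA for 39.5% against 20.9% and the E-box variant CACGCG for 21.1% against 13.7%. The NFY box CCAAT stood at 43.4% against 42.3%, and the variant CACATG at 10.5% against 13.2%. TGANTCA, the AP-1 site, was found for 3.95% against 8.12%, and TGATGNAA, the ATF4 composite element, for 0 of 76 genes against 4.13%. A window without a match says only that these letters are not in it. The GC box was also found for 58.9% of normal-only genes and 69.6% of genes under regions of all 4 lists, the ETS core for 55.4% and 37.3%, the half-site TGACGT for 10.7% and 13.9% and CACGCG for 12.5% and 15.8%. GC content was 66.3% in the median starved-only window and 56.3% in the median window of all genes. It was 60.3% in the median window of normal-only regions and 63.3% in that of regions of all 4 lists.

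The 11 genes whose window held no E-box were St3gal5, Ostm1, Mkrn3, Gemin7, Smc3, Ppt1, Zfp11, Gpatch8, Trappc2l, Swap70 and Nrd1. None of them belonged to the 30 regions of highest fold enrichment, where 19 of 19 regions with a summit in a window had an E-box. When the 275 regions were ordered by the smaller of their 2 fold enrichments and divided into equal parts, the E-box was present in 42 of 46 window regions of the top part, 15 of 19 of the middle part and 3 of 6 of the bottom part.

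Fold enrichment is the authors' ratio of the pileup at a summit to the local background, and it depends on the depth of its library. No change between conditions was computed from it, and values of the 2 starved lists were set side by side only to order the regions and to describe how even the pairs were. The values chose the regions through the caller's threshold and are given as a description. In starved 1 it ran from 3.47 through a median of 5.35 to 14.6, and in starved 2 from 3.45 through 5.30 to 13.8. The regions of all 4 lists had medians of 8.05 and 7.94 in the same lists. The starved-only summits held 3 to 37 reads in starved 1 and 3 to 49 in starved 2, with a median of 6 in each, against 18 in each for the regions of all 4 lists. At least 10 reads stood at both summits in 91 of the 275 regions, and 135 had a summit with at most 5. The starved-only set was thus mostly made of weak peaks with a strong minority.

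The strong minority was led by 6 regions with a fold enrichment of at least 10 in both lists. The region at Cnppd1 and Retreg2 (chr1:75142459-75143015) had 14.2 in starved 1 and 13.5 in starved 2, from 22 and 21 reads. That of Cbx6 and its neighbour Npcd (chr15:79834110-79834666) had 12.1 and 13.8. The Mapre1 region (chr2:153740949-153741421) had 14.6 and 12.0, from 37 reads in each list. Slc38a2, which encodes a sodium-coupled importer of neutral amino acids, had 12.1 and 11.9 at a summit 830 bp from its start. Rbm15b, a subunit of the messenger RNA m6A methylation complex, had 10.6 and 10.8. The sixth lay between genes, 3732 bp from Gclc, the catalytic subunit of the enzyme that begins glutathione synthesis, and had 10.04 and 10.2. In all 6 the values of the 2 lists lay close together. In the set as a whole, 263 of 275 regions had fold enrichments within 1.5 times of each other. Both values had to pass the caller's threshold and most were weak, so this evenness is no measure of agreement between the libraries.

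**Figure D3:**
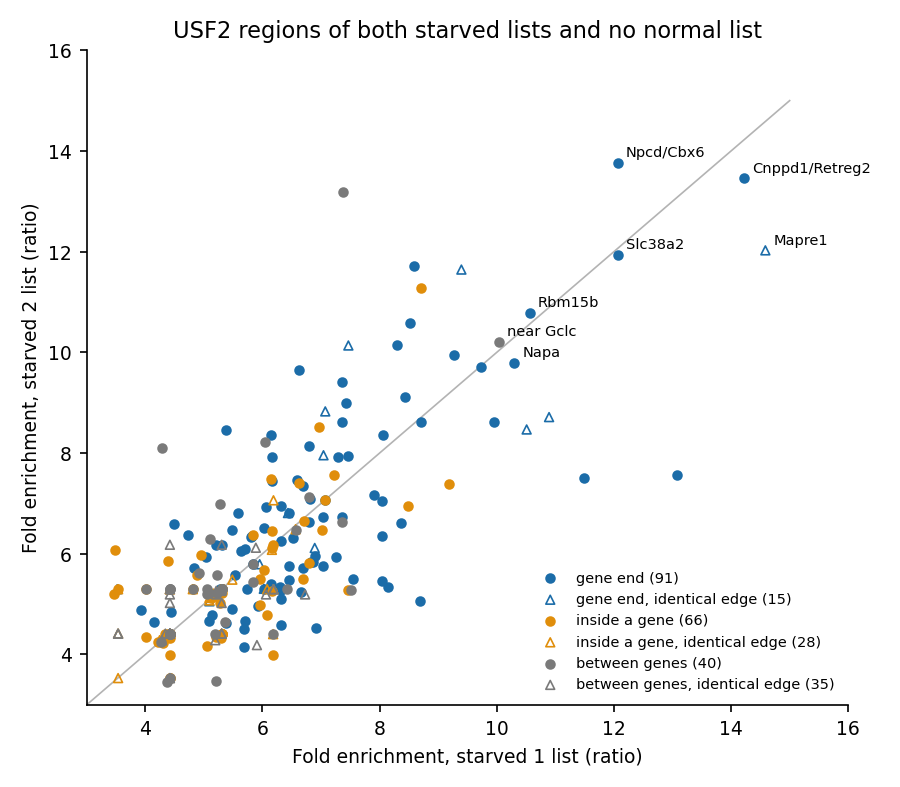
Fold enrichment of the 275 starved-only regions in the starved 1 list (horizontal axis, ratio) and the starved 2 list (vertical axis, ratio), coloured by place, with open triangles for regions that share a peak edge in both lists. The grey line marks equal values; the 7 strongest regions are named and range from 9.80 to 14.6.

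The next regions are given here by what their genes do, an arrangement made for reading and not a tested grouping. Slc16a1, the gene of the monocarboxylate carrier MCT1 for lactate and pyruvate, had a fold enrichment of 9.27 in starved 1 and 9.95 in starved 2. Ogdhl, a relative of the oxoglutarate dehydrogenase subunit of the citric acid cycle, had 9.73 and 9.71 from 10 reads in each. Coa7, an assembly factor of cytochrome c oxidase, had 9.95 and 8.62. Mul1, a ubiquitin ligase of the outer mitochondrial membrane, had 7.47 and 10.1. For each of these genes the starved values come with no peak in either normal list, which is the rule and not a further result.

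Napa, of the SNARE machinery, had 10.3 in starved 1 and 9.80 in starved 2. Rufy1, an endosomal protein, had 7.36 and 8.62. The region at Aida and Brox had 7.47 and 7.95, and Brox carries the Bro1 domain of ESCRT-associated proteins. Plin2, which coats lipid droplets, had 7.36 and 9.41.

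Lats2, a kinase of the Hippo pathway, had 10.5 and 8.47, and its 2 peaks had the same first and last base. Bcl6, a zinc finger repressor, had 11.5 and 7.51, and Repin1, a zinc finger protein, had 13.1 and 7.57. These last were among the less even pairs of the strongest regions. Cfl2, a cofilin that severs actin filaments, had 7.42 and 9.0. Fbxo10 and Fbxw4, F-box proteins, had 8.06 and 8.37, and 8.70 and 8.62. Rragb, a Rag GTPase that recruits mTORC1 to the lysosome, had 9.18 and 7.38 at an annotated start inside its gene. The remaining regions among the 30 strongest, Ccnyl1, Armc9, Prelid3a, Tmc8 and Tmc6, B3gat3, Lmnb1, Dip2b and Lmln, ranged from 7.29 to 11.7.

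One of the 30 strongest stood apart in form. It lay in a gene desert, 1035332 bp from Lrrc4c (chr2:98666034-98667545), and had a fold enrichment of 7.38 and 13.2 from 31 and 49 reads. Its peaks were the widest of the set, 1223 and 1512 bp, and their summits were 251 bp apart. A second starved-only region (chr2:98662429-98663096) lay 2938 bp from it, with 6.05 and 8.21. This stretch is widely known to collect excess reads in mouse sequencing, and no exclusion list was used here.

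Gene-end regions, whose summit was no farther than 1000 bp from the first or last base of a protein-coding gene, touched 123 of 21887 protein-coding genes, or 0.562%. The lists of genes set beside them were chosen with earlier results of these data known, so their counts are a description. Such a region was found for 3 of 56 genes of lysosomal hydrolases and their cofactors, Galns, Gnptg and Ppt1. Galns, a sulfatase, shared its region with Trappc2l (4.49 in starved 1 and 6.59 in starved 2). Gnptg, a subunit of the enzyme that tags hydrolases with mannose 6-phosphate, shared its own with Tsr3 (6.32 and 4.59). Ppt1, a thioesterase, had 5.74 and 5.30. Of 55 lysosomal membrane, channel and sorting genes 2 had one, Ostm1 (6.32 and 6.94), a partner of the chloride transporter ClC-7, and Hps3 (6.89 and 6.12), a subunit of the BLOC-2 complex. Cd63, a tetraspanin of late endosomes, had 6.63 and 7.41 at an annotated start inside its gene. The regions of all 4 lists touched 12 genes of each of these lists and 6 of 16 vacuolar ATPase genes, of which the starved-only regions touched 0. Normal-only regions touched 5 of the 55 membrane, channel and sorting genes and 0 of the hydrolase and vacuolar ATPase genes. The share of all protein-coding genes touched by either of these classes was not computed. Their counts, here and in the next paragraph, therefore have no background and cannot be compared with the starved-only counts.

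Among the other lists, 2 of 20 carriers of amino acids and monocarboxylates had a starved-only gene-end region, Slc16a1 and Slc38a2. Lists with 1 such gene were the citric acid cycle and respiration (Ogdhl, of 32), lipid and sterol synthesis (Insig1, of 28), the circadian clock (Ciart, of 21), Polycomb and histone deacetylation (Cbx6, of 31), splicing and messenger RNA methylation (Rbm15b, of 24), SNAREs (Napa, of 28) and microtubules (Mapre1, of 26). Insig1, which retains the sterol sensor SCAP in the endoplasmic reticulum, had a fold enrichment of 6.14 and 8.37. Ciart, a repressor of CLOCK and BMAL1, had 6.46 and 6.82 from 23 and 24 reads. Tef, a clock-controlled bZIP factor of the circadian list, had 5.96 and 4.98 at an annotated start inside its gene. Starved-only gene-end regions were found for none of 38 autophagy genes, 20 genes of AMPK and energy sensing, 21 of glycolysis and glucose transport, 29 of the endoplasmic reticulum and integrated stress responses, 34 of amino acid sensing and mTORC1, 23 antioxidant genes or 18 bHLH-zip factors. In the mTORC1 list, however, Rragb had the region at an inner start described above. The autophagy, stress response, mTORC1 and antioxidant lists each had 1 gene at a region of all 4 lists. Normal-only regions touched 1 gene each of the stress response, mTORC1, circadian and Polycomb lists, and 0 of the other lists in this paragraph. Over all protein-coding genes the starved-only share was 0.562%, so most lists of this size would have no such gene. The starved-only zeros are thus no result about these genes. They concern calls at gene ends alone, and a list without a call is no measure of absent binding.

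By place, 106 of the 275 regions (38.5%, interval 32.8 to 44.6) were at a gene end, 94 (34.2%) inside a gene and 75 (27.3%) between genes. The gene ends were nearly all starts where the direction was known: 92 were starts, 3 were far ends and 11 were not known. Summits at starts lay a median of 78 bp away. Exon, intron and UTR positions are not given. Normal-only regions were at a gene end in 155 of 760 cases, or 20.4%, and the odds ratio of starved-only to normal-only was 2.45 (1.79 to 3.34, Fisher's exact test, adjusted p = 1.36e-08). Regions of all 4 lists were there in 205 of 247 cases, or 83.0%, and the odds ratio of starved-only to these was 0.129 (0.0831 to 0.197, Fisher's exact test, adjusted p = 1.90e-25). The difference from normal-only regions was not stable to list length or to leaving out a starved library. Without a starved library, 1 starved call was enough for the starved-only set, while normal-only regions still needed calls in both normal lists. With lists of equal length the shares were 52.5% against 46.9% for normal-only regions (adjusted p = 0.247, Fisher's exact test), without starved 1 they were 19.4% against 21.1% (p = 0.418) and without starved 2 they were 24.8% against 23.0% (p = 0.432). With −log10 q of at least 5 in every list they were 76.8% against 56.6% (Fisher's exact test, adjusted p = 0.00149), and with that limit in the starved lists only 74.7% against 23.2%. With summits of at least 10 reads in every list the starved-only share was 82.9%, against 71.1% for normal-only regions (Fisher's exact test, adjusted p = 0.0857) and 83.7% for regions of all 4 lists (adjusted p = 0.874). A limit in every list, or a cut to equal length, also removed weak normal peaks. Regions with such a peak could then enter the starved-only set, so these are not shares of the 275 regions alone.

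**Figure D4:**
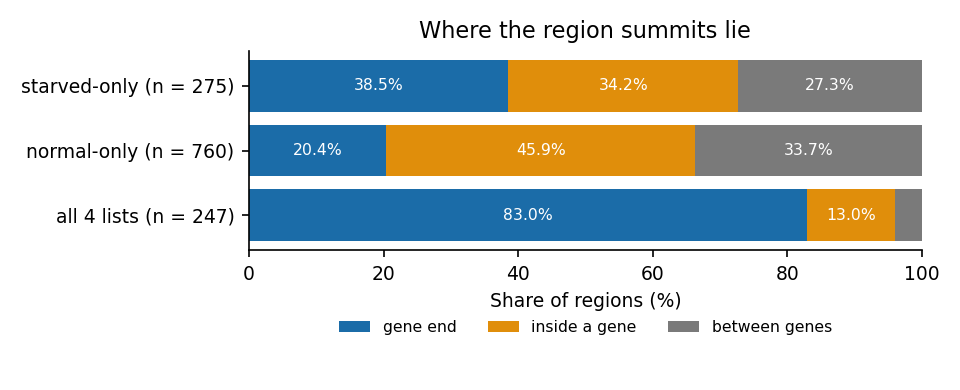
Share of region summits (horizontal axis, percent) within 1000 bp of an end of a protein-coding gene (blue), inside a gene but farther from its ends (orange) or between genes (grey). The starved-only bar is 38.5% blue, between the 20.4% of normal-only regions and the 83.0% of regions of all 4 lists.

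Place and strength went together within the set. Gene-end regions made up 65 of 92 regions in the top part by fold enrichment (5.64 to 13.5), 33 of 91 in the middle part and 8 of 92 in the bottom part (3.45 to 4.51), and 26 of the 30 strongest. Their median fold enrichment was 6.61 in starved 1 and 6.36 in starved 2, from 12 and 13 reads. Regions inside genes had medians of 5.30 and 5.20, and those between genes 5.20 and 5.23, from 5 reads in every case. The order had exceptions, such as the regions near Gclc and inside Prelid3a (8.70 and 11.3), which were strong and not at a gene end. Prelid3a lies on chromosome 18, which had no promoter windows here, so an inner start could not be looked for. Sequence outside the promoter windows was not used here, so whether regions elsewhere hold an E-box was not examined.

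Some pairs of peaks shared an edge. In 78 of 275 regions (28.4%) the peaks of starved 1 and starved 2 had the same first base, the same last base or both, and in 39 both were the same. The share was 14.2% at gene ends, 29.8% inside genes and 46.7% between genes (35 of 75). Strong promoter regions were among them, Mapre1, Armc9, Lats2 and Ccnyl1 for example. Of the 39 with both edges the same, 35 had the narrowest width of 306 bp, 27 had the same number of reads at both summits and 4 were at a gene end. Among the other 236 regions 95 had the same number of reads. Both edges were the same in 2 of the 247 regions of all 4 lists and, between the normal lists, in 262 of 760 normal-only regions (34.5%). The E-box share did not rest on these regions, since 54 of 64 window regions without a shared edge held it, as did 6 of 7 with one. How the shared edges arose was not tested.

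The rule asked for overlapping peaks in the 2 starved lists, so the gap between their summits was limited from the outset and is a description. The median gap was 42 bp, and it was within 100 bp in 227 of 275 regions (82.5%). In regions of all 4 lists the median gap was 26 bp, and 232 of 247 (93.9%) were within 100 bp. The widest gap of the set, 386 bp, belonged to one of its weakest regions, near Herpud2.

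Distances to normal peaks are a description, since the rule left out every region that overlapped one. No background distance was computed for other positions. The nearest peak of either normal list was a median of 199689 bp away, and it was within 10000 bp for 8 regions (2.91%) and within 500 bp for 1. That one, near Zfp362 (chr4:128811676-128811991), was 2 bp from a normal peak, with a fold enrichment of 4.92 in starved 1 and 5.63 in starved 2. The starved-only regions were spread over 20 chromosomes. They were 22 of 208 merged regions on chromosome 4 and 21 of 232 on chromosome 11. On chromosomes 13 and X they were 5 of 141 and 5 of 52.

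Of 543 regions in both starved lists, 275 were starved-only, 247 were in all 4 lists and 21 had a peak in 1 normal list, just outside the rule. The strongest of these 21 was at Sirt1, the gene of an NAD-dependent deacetylase, with 14.4 in starved 1, 15.9 in starved 2 and 5.29 in normal 1. Hoxc9 had 10.2 and 12.1 with 5.32 in normal 2, Rnaseh2b 11.7 and 9.65 with 5.35 in normal 2, and Ccdc57 8.82 and 9.57 with 5.40 in normal 1. Bloc1s1, a subunit of the BLOC-1 and BORC complexes of endosomes and lysosomes, had 8.47 and 10.3 with 7.79 in normal 1. The 5 weakest regions inside the rule were at Hsf4 and Nol3 (3.52 and 5.30), Mtss1 (3.49 and 6.08), Mylk (3.47 and 5.19), near Herpud2 (5.21 and 3.47) and near Psat1 (4.37 and 3.45), each with 3 reads at one of its summits. A strong starved region could thus leave the set through a single normal peak, while regions of 3 reads stayed in it.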

How the data were processed

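USF2 ChIP-seq peak lists of 4 libraries were used, 1 list per library and not pooled. The input and H3K27ac libraries were not analysed here. Per the submitters' processing notes the build was GRCm38 and the tools were MACS2 2.2.7.1, Bowtie2 2.5.1 and deepTools 3.5.1. Parameters, and whether inputs were the control, are not given in the sources used here. The deposited lists give the authors' fold enrichment (a ratio of summit pileup to local background), −log10 p and −log10 q per peak, and a score, which is −log10 q times 10 without its decimals. Fold enrichment depends on depth, so no change between conditions was computed from it.

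The members and the gene and motif lists were chosen with earlier results of these data known. Named regions are the 30 with the highest smaller fold enrichment, list genes with a gene-end region, and the 5 just inside and just outside the rule. Only peaks of chromosomes 1 to 19, X and Y entered the merging (Python 3.11.15, pandas 2.3.3). Reads at a summit were recovered from fold enrichment and p-value, within 0.001 on the −log10 scale. Library totals were not used here. Genes (21887 protein-coding) and promoter windows (21263, of 17492 genes) are RefSeq GRCm38.p6, with no window on chromosome 18. The tests were two-sided Fisher's exact tests (scipy 1.17.1) with Benjamini-Hochberg adjustment over 4. They treat regions or genes as units. The 95% intervals are exact and reflect counting error alone. The steps were tested on simulated data. Alternatives covered overlap, thresholds, list length, left-out libraries, shared edges, summit distance and the gene-end distance.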

Additional observations from a re-analysis of the deposited data

Results flagged for a closer look

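Starved 2 listed 8 peaks outside the assembled chromosomes, on scaffolds with no place in them, while the other 3 lists had 0 there. These peaks entered no comparison.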

How the results depend on the processing

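The number of starved-only regions was 99 with −log10 q of at least 5 in every list, 79 with that limit in the starved lists only and 111 with summits of at least 10 reads, a limit chosen after seeing the data. The −log10 q limit in every list, the limit of 10 reads and the cut to equal length also removed weak normal peaks. Regions outside the rule could thus enter the starved-only set under these settings. Leaving out a library gave 283 to 823 regions, and without a starved library 1 starved call was enough for a region to enter. The gene-end share minus that of regions of all 4 lists was -6.76, -9.50 and -0.861 percentage points under the same 3 limits, no longer past the threshold, and -63.4 to -41.6 when a library was left out. The gene-end share minus that of normal-only regions was 5.65 points with lists of equal length and 11.8 with at least 10 reads, neither past the threshold. It was 20.2 with the −log10 q limit in every list and 51.5 with it in the starved lists only, both past the threshold, and -1.67 to 27.1 when a library was left out, with the sign turned without starved 1. The cause was not tested. The E-box share minus that of regions of all 4 lists was -10.8 points with lists of equal length, where it passed, and 0.996 with the limit on the starved lists only. The E-box share stayed above that of normal-only regions and past the threshold under all 14 alternatives run (31.3 to 51.9 points). No paired analysis was possible because a region class comes from calls across the lists and has no value per replicate. The few reads at most summits limit the precision of single regions.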
